A study of Homo sapiens with 12 samples.

Results

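The 40 genes described here carry out DNA replication and mitosis, and they were chosen by name from 19630 protein-coding genes with a start site. A locus spanned the gene on hg38 and 5 kb to either side, and the promoter, 1 kb on each side of the start site, was counted apart from the rest. The loci covered 1439 kb and held 235 of 334907 merged open regions, of which 54 lay on member promoters and 181 elsewhere. The genes were 13 of replication licensing and the helicase (MCM2, MCM3, MCM4, MCM5, MCM6, MCM7, MCM10, CDC6, CDC45, CDT1, ORC1, GINS1 and GINS2), 5 of DNA synthesis (PCNA, RFC4, POLE, POLE2 and PRIM1), 3 of nucleotide supply (RRM1, RRM2 and TYMS), 3 E2F factors (E2F1, E2F2 and E2F8), 7 cyclins and cyclin-dependent kinases (CCNE1, CCNE2, CCNA2, CCNB1, CCNB2, CDK1 and CDK2) and 9 of mitosis (AURKA, AURKB, PLK1, BUB1, BUB1B, TOP2A, MKI67, CDC20 and FOXM1).

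The assay was bulk ATAC-seq, where the Tn5 transposase cuts and tags accessible DNA, in 3 human acute myeloid leukemia lines. MOLM13 and MV4-11 have a rearranged MLL1 gene and OCI-AML3 has mutant NPM1. Every line was sampled as untreated control and after 16 h with 500 nM VTP50469, an inhibitor of the contact between menin and MLL1, with 2 libraries in each of the 6 groups, and the cells had been cryopreserved before tagmentation. The labels do not say that the 2 libraries of a group came from separate cultures, so the p-values may measure technical spread alone. A library had 68670 to 145364 peaks in use, with a median of 9 to 13 reads over the summit. Of the defining myeloid markers, 3 to 7 of 7 had a promoter peak in a library, the lowest in OCI-AML3 control 1 and VTP50469 2, against 0 or 1 of 5 T cell, 0 to 2 of 4 B cell and 0 or 1 of 5 erythroid markers.

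DNA is copied once per cell cycle. In G1 the origin recognition complex, CDC6 and CDT1 load the MCM helicase onto origins, and in S phase CDC45 and the GINS proteins turn the helicase on, while PCNA, its loader RFC and the polymerases extend the new strands. Genes of this phase are classical targets of the E2F factors, which bind GC-rich elements near the start site, and genes of G2 and mitosis commonly carry CCAAT boxes, bound by NF-Y, and a CHR element, bound by the DREAM and MuvB complexes. Their promoters are known to lie open in dividing cells.

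Sequence was compared first, since it separates the genes by phase without using any peak. RefSeq (GRCh38.p14) held the promoter of 33 of the 40 genes, 22 of G1 and S phase and 11 of G2 and M phase, as 250 bases before to 50 after the start site. An E2F element, searched as TTCCCGC or as TTCGCGC or as TTGGCGC on both strands, was found in 19 of 22 promoters of G1 and S genes, 86.4%, in 2 of 11 of G2 and M genes (CCNB1 and CDK1), and in 14.7% of 15812 protein-coding promoters of the same length. CCAAT was found in 14 of 22 and 10 of 11 promoters beside 36.4% of all, and the CHR, searched as TTTGAA, in 1 of 22 (RRM1) and 7 of 11 beside 12.2%. CCAAT and the CHR were present together in 6 of 11 promoters of G2 and M genes and in 5.10% of all. Among the 8887 promoters with a peak in all 12 libraries the shares were 19.1% for E2F, 38.0% for CCAAT and 9.44% for the CHR. The GC box GGGCGG was in 17 of 22 and 9 of 11 beside 58.3%, and the ETS element CCGGAAG in 3 of 22 and 3 of 11 beside 14.1%. Among the promoters with a peak in all 12 libraries these shares were 72.1% for the GC box and 21.4% for the ETS element. The searched elements may overlap, as TTGGCGC and CCAAT do where they share bases. A match describes letters and is not a bound site.

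The 160 bases before the start site are printed for 9 genes, with E2F, CCAAT and CHR letters in capitals and every other base in lower case, 5′ to 3′ on the strand of the gene. MCM6, E2F1, CDT1 and E2F2 show the E2F elements of G1 and S genes, and CDT1 and E2F2 had the weakest promoter peaks. CCNB2, CDC20 and MKI67 show CCAAT and the CHR in 1 window, and MKI67, CCNB1 and BUB1B had the smallest unadjusted treatment p-values.
MCM6, chr2:135876444-135876603, minus strand: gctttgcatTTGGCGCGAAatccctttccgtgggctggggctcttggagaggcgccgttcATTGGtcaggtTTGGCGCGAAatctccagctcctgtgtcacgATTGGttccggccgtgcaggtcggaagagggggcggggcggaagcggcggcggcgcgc
E2F1, chr20:33686386-33686545, minus strand: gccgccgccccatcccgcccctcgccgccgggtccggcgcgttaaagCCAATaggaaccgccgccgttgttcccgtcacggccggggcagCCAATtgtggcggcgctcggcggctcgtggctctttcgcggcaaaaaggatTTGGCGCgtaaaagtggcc
CDT1, chr16:88803629-88803788, plus strand: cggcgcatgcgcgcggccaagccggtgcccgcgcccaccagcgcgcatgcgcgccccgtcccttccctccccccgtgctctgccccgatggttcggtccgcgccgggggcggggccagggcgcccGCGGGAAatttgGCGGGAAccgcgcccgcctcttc
E2F2, chr1:23531234-23531393, minus strand: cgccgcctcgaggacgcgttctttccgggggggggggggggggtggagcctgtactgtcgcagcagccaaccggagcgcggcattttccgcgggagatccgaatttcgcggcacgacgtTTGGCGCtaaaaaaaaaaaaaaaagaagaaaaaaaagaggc
CCNB2, chr15:59104986-59105145, plus strand: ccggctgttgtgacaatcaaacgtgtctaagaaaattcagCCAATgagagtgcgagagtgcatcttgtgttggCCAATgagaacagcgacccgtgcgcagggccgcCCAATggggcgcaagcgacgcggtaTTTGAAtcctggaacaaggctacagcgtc
CDC20, chr1:43358821-43358980, plus strand: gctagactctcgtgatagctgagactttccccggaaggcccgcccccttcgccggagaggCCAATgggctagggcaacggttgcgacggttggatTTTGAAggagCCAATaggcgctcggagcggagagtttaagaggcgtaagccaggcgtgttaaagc
MKI67, chr10:128126424-128126583, minus strand: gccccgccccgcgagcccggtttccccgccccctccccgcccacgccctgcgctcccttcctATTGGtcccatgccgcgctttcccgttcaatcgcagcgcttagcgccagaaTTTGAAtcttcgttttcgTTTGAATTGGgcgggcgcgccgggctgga
CCNB1, chr5:69166990-69167149, plus strand: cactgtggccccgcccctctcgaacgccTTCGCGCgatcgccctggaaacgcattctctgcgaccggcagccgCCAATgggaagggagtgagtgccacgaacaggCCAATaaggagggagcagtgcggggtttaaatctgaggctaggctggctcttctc
BUB1B, chr15:40160909-40161068, plus strand: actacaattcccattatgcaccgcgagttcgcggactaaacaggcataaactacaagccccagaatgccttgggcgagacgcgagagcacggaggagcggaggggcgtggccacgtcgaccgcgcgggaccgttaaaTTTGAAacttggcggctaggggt

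MCM6 has 2 places where TTGGCGC overlaps a TTCGCGC match on the other strand. Of the 4 CCAAT boxes in its promoter window, CCNB2 has 3 in the printed bases, upstream of a CHR. In MKI67 the CHR next to the start site shares its last base with a CCAAT box on the other strand. BUB1B has the CHR and no CCAAT within its promoter window.

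**Figure D1:**
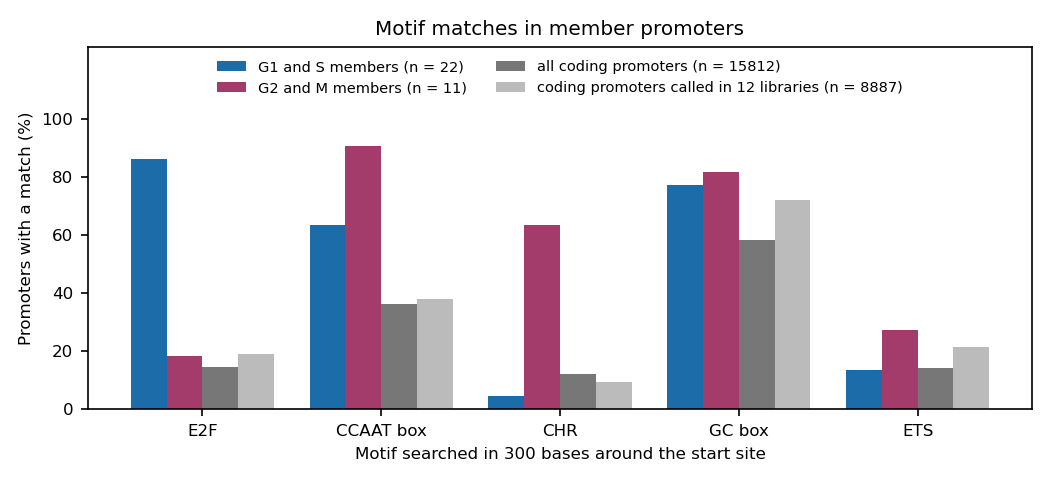
Bars give the share of promoters (%) with at least 1 match to each motif in 300 bases, for 22 G1 and S members, 11 G2 and M members, 15812 coding promoters and the 8887 of these with a peak in all 12 libraries. The E2F bar is highest for G1 and S members (86.4%) and the CCAAT bar for G2 and M members (90.9%).

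Nearly every member promoter was open in every library. A peak lay on the promoter in all 12 libraries for 39 of 40 genes, beside 53.6% of 19630 protein-coding promoters. In a single library 39 or 40 of the 40 were called, beside 61.1% to 67.8% of the protein-coding promoters. The exception was E2F2, which encodes an activating E2F factor, with a peak in 10 libraries. The fold enrichment (summit reads relative to the background nearby) had a median over libraries between 5.23 (E2F2) and 17.9 (CDK1), and the median of these medians was 12.03 for the members and 11.0 for all promoters called in 12 libraries. Ranked among the called coding promoters of the same library, the members had a median percentile of 70.1, with 26 of 40 above percentile 50 and 8 above percentile 90. The summit lay within 250 bp of an annotated start site for 35 of the 39 members, beside 83.0% of the 10513 coding promoters called in 12 libraries. In CCNE2, E2F8 and TYMS the median summit lay 983, 543 and 472.5 bp downstream of the start site used, and in AURKB it lay at -385.5 bp. For TYMS the lines differed, with summits at -151 to -35 bp in MOLM13, 303 to 713 bp in MV4-11 and 128 to 740 bp in OCI-AML3.

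By role, the cyclins and kinases were strongest, with a median fold of 14.5 and a median percentile of 84.9, followed by mitosis genes with 13.2 and 79.5 and by licensing and helicase genes with 12.96 and 72.3. Synthesis genes had 11.4 and 68.8. Nucleotide supply, with 8.96 and 35.2, and E2F factors, with 8.48 and 33.3, stood lowest, although each holds only 3 genes. Roles overlapped widely, since licensing genes ranged from 6.74 (CDT1) to 17.2 (MCM10).

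CDK1, the kinase that drives entry into mitosis, had the highest median, and its folds were 15.4 and 13.1 in control and 13.8 and 20.2 in treated MOLM13, 18.8 and 18.7 in control and 23.3 and 19.2 in treated MV4-11, and 16.9 and 18.4 in control and 16.3 and 17.5 in treated OCI-AML3. MCM10, a helicase cofactor needed for origin firing, had 12.6 and 16.0 in control and 16.9 and 17.7 in treated MOLM13, 19.7 and 19.1 in control and 21.0 and 18.9 in treated MV4-11, and 15.4 and 17.6 in control and 14.1 and 16.0 in treated OCI-AML3. For MCM3, a subunit of the MCM ring, the folds were 13.3 and 17.1 in control and 14.4 and 18.6 in treated MOLM13, 15.7 and 15.5 in control and 19.6 and 18.6 in treated MV4-11, and 17.2 and 18.6 in control and 13.3 and 14.8 in treated OCI-AML3. Among the called coding promoters of a library, the lowest percentile that CDK1, MCM10 and MCM3 took in any library was 80.2, 82.2 and 87.8. The folds of CDK1 spread from 13.1 to 23.3, so the order of these 3 genes is within the spread of the libraries.

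E2F2 had the lowest median. Its folds were 5.14 and 6.89 in control and 4.69 and 7.93 in treated MOLM13 and 5.08 and 5.14 in control and 7.14 and 5.74 in treated MV4-11, while in OCI-AML3 it was called only in control 2 with 4.84 and in VTP50469 1 with 5.32. OCI-AML3 control 1 and VTP50469 2, the libraries without a peak, had 70454 and 68670 peaks in use, the fewest of all, and the E2F2 peaks of the other 10 libraries rested on 7 to 31 summit reads. CDT1, which brings the MCM helicase to the origin, had 4.29 and 5.92 in control and 10.2 and 5.83 in treated MOLM13, 6.33 and 8.18 in control and 8.10 and 7.15 in treated MV4-11, and 7.34 and 9.21 in control and 5.67 and 5.05 in treated OCI-AML3. POLE2, a subunit of the leading-strand polymerase, had 6.32 and 6.08 in control and 8.71 and 8.76 in treated MOLM13, 6.12 and 7.84 in control and 8.65 and 10.4 in treated MV4-11, and 11.0 and 8.25 in control and 7.24 and 6.59 in treated OCI-AML3. By fold, both treated libraries lay below both controls in OCI-AML3 for CDT1 and POLE2, beside 26.5% of coding promoters. For POLE2 they lay above the controls in MOLM13 and MV4-11, beside 26.7% and 23.8%. By the rank score used in the tests below, POLE2 did not lie apart in OCI-AML3. Neither promoter passed a treatment test. The part of depth in the missing E2F2 calls was not tested.

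**Figure D2:**
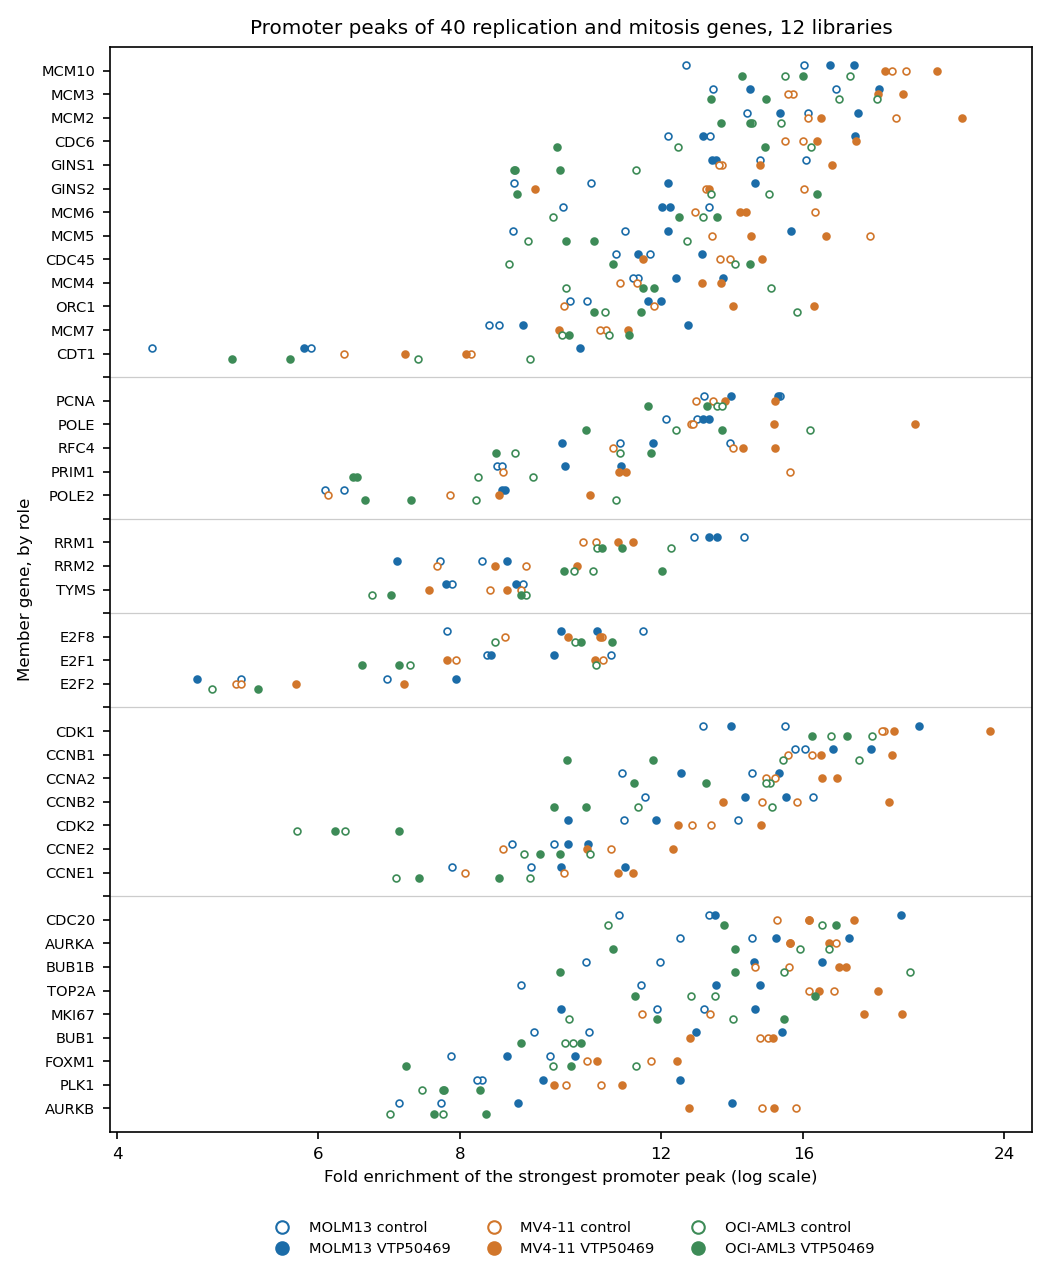
Each point is the fold enrichment (log axis) of the strongest promoter peak of a gene in 1 library, colored by line, open for control and filled for VTP50469, with genes grouped by role and ordered by median. Medians run from 17.9 for CDK1 to 5.23 for E2F2, and in CDK2 all 4 OCI-AML3 points lie left of the other 8.

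Outside promoters the member loci held few regions that all libraries had in common. Of 181 such regions 113 (62.4%) were called in 1 library, beside 57.5% of 311847 regions outside coding promoters across the genome, and 13 (7.18%) were called in all 12, beside 4.34%. The genome figures leave out every coding promoter, and without the promoters of neighboring genes 165 member regions remained, of which 108 (65.5%) were called in 1 library and 7 (4.24%) in all 12. CCNA2, CDK1 and TOP2A had no region outside the promoter. Of the 13 regions in all libraries, 6 lay on the promoter of another gene in the flank: COPS6 beside MCM7, APRT beside CDT1, TMEM230 beside PCNA, KLHDC1 beside POLE2, RAB5B beside CDK2 and ELOVL1 beside CDC20. The other 7 lay at MCM3, MCM5, RRM2, E2F1, AURKA, AURKB and FOXM1.

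The strongest of these 7 was within AURKA, the mitotic spindle kinase, at chr20:56374031-56374475, 18.0 kb into the gene, with folds of 11.0 and 18.6 in control and 15.2 and 22.3 in treated MOLM13, 22.4 and 18.3 in control and 17.7 and 17.0 in treated MV4-11, and 12.2 and 15.6 in control and 10.1 and 8.58 in treated OCI-AML3. Its median fold of 16.3 stood beside 15.6 for the AURKA promoter. A region within MCM5, chr22:35410034-35410627, 10.2 kb from the start site, had 10.4 and 14.99 in control and 8.40 and 15.04 in treated MOLM13, 15.2 and 14.03 in control and 13.1 and 17.0 in treated MV4-11, and 7.85 and 7.10 in control and 8.11 and 8.42 in treated OCI-AML3. Downstream of AURKB, the kinase of the chromosomal passenger complex, the region chr17:8199829-8200424 had 6.27 and 8.09 in control and 8.44 and 7.92 in treated MOLM13, 14.4 and 14.3 in control and 9.91 and 18.5 in treated MV4-11, and 4.90 and 5.94 in control and 10.1 and 8.58 in treated OCI-AML3. At AURKA and MCM5 all 4 OCI-AML3 values lay below all 4 of MV4-11, and at AURKB the lines overlapped by 1 library each (10.1 and 9.91).

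**Figure D3:**
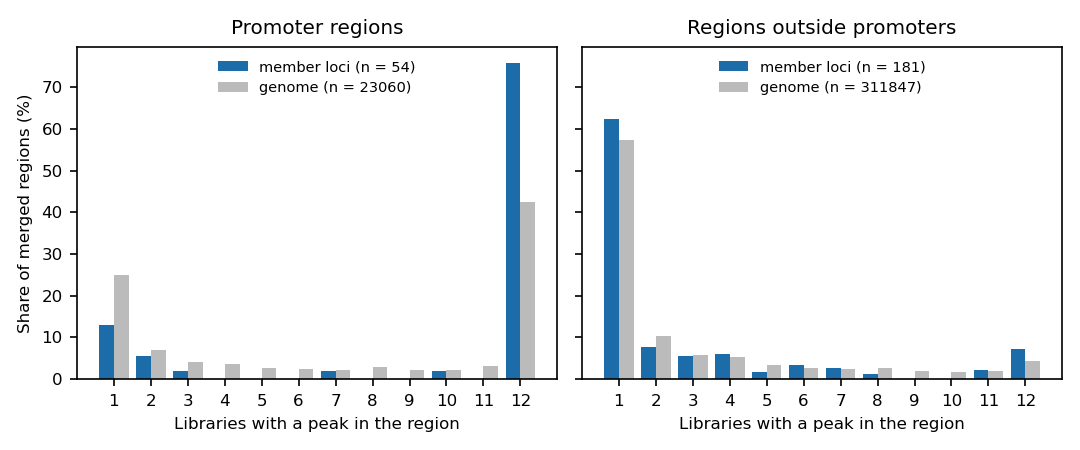
Bars give the share of merged regions (%) by the number of libraries, 1 to 12, with a peak in the region, at left for promoters and at right outside promoters, for member loci and for the genome. At member promoters 75.9% of regions were called in all 12 libraries, beside 42.6% at coding promoters of the genome. Outside promoters 62.4% of member regions were called in only 1, beside 57.5% of those of the genome.

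Few member regions belonged to 1 line, that is, were called in all 4 libraries of a line and none of the other 8. Of the 235 member regions 0 were of this kind for MOLM13, beside 0.124% of all regions. For MV4-11 there were 3 of 235, a share below the 2.01% of all regions. For OCI-AML3 there were also 3 of 235, a share above the 0.245% of all regions, and these counts are small. In MV4-11 these were within MCM6 (chr2:135840681-135840973, folds 5.89 and 8.32 in control and 5.91 and 7.18 in treated MV4-11), downstream of CDC45 (chr22:19523307-19523962, 4.53 and 6.58 in control and 4.86 and 4.79 in treated MV4-11) and upstream of RRM1 (chr11:4091926-4092289, 5.62 and 5.87 in control and 4.29 and 4.46 in treated MV4-11). In OCI-AML3 they were downstream of POLE2 (chr14:49641723-49641941, 6.72 and 7.72 in control and 4.76 and 5.51 in treated OCI-AML3), upstream of E2F8 (chr11:19244762-19244927, 4.44 and 3.70 in control and 3.43 and 3.33 in treated OCI-AML3) and at the far end of MKI67 (chr10:128096411-128096786, 7.12 and 10.4 in control and 5.37 and 4.19 in treated OCI-AML3). None of these regions lay on a start site of another gene.

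VTP50469 was then compared with control in each line, first by whether a region was called. A region was lost when both controls and neither treated library had a peak, and gained in the reverse case. MOLM13 had 1 lost and 2 gained of 136 member regions, where 1.30% of all regions were lost and 3.22% gained. MV4-11 had 3 lost and 0 gained of 176, where 2.75% were lost and 1.92% gained. OCI-AML3 had 2 lost and 1 gained of 116, where 2.57% were lost and 1.32% gained. In each case the share of member regions was below that of all regions, and no main promoter peak was among them. A region called in all 4 libraries of a line cannot be lost or gained. Of member regions 44.1%, 43.2% and 53.4% were of this kind in MOLM13, MV4-11 and OCI-AML3, beside 24.5%, 33.7% and 19.5% of all regions. The lower shares therefore do not show that the members were more stable.

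The lost regions were small and weak. In MOLM13 it was chr17:40303124-40303297 within CDC6, the loader of the MCM ring, with folds of 4.18 and 5.55 in the controls on 5 and 8 summit reads. MV4-11 lost chr12:55966227-55966427, at -0.504 kb from the CDK2 start site and also within 1 kb of that of PMEL, with 5.42 and 4.79, and 2 regions within checkpoint kinase genes, chr2:110655807-110655913 in BUB1 with 5.41 and 5.35 and chr15:40182628-40182913 in BUB1B with 4.81 and 6.54. OCI-AML3 lost chr17:40418312-40418397, at -0.458 kb from the start site of TOP2A, the DNA topoisomerase that untangles sister chromatids, with 5.25 and 3.82, and chr1:43358149-43358301, at -0.757 kb from that of CDC20, an activator of the anaphase-promoting complex, with 4.93 and 3.70. The stronger peak at the start site of CDK2, TOP2A and CDC20 remained called in all libraries. With peaks merged over all 12 libraries, the lost CDK2 region was part of a region called in all 4 MV4-11 libraries.

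The gained regions were of like strength. In MOLM13 chr12:132639089-132639191 within POLE, the catalytic subunit of the leading-strand polymerase, had 6.08 and 5.15 in the treated libraries, and chr12:56749483-56749616 within PRIM1, the primase that starts new strands, had 3.69 and 5.26. OCI-AML3 gained chr12:132638602-132638742, also in POLE, with 4.72 and 4.32. With peaks merged over all 12 libraries, the POLE region of the MOLM13 gain was called in all 4 MOLM13 libraries. That of the OCI-AML3 gain was called in 3 OCI-AML3 libraries, so these calls depended on how peaks were merged. Across the lines the 6 lost and 3 gained regions rested on 5 to 12 summit reads, where the median over all peaks of a library was 9 to 13. A region without a peak need not be closed.

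Promoter strength gave no treatment call. The fold of each region was ranked within its library and turned into a normal score, and limma compared treated with control over all regions called in the libraries concerned (two-sided, Benjamini-Hochberg over all regions). No region passed in MOLM13 (0 of 41518, 0%), MV4-11 (0 of 70124) or OCI-AML3 (0 of 30982), nor over the 3 lines together (0 of 23338), although 2329, 4613, 1797 and 1495 regions had an unadjusted p under 0.05. The median shift of the member promoters was 0.05 in MOLM13 (40 tested), 0.20 in MV4-11 (40) and 0.03 in OCI-AML3 (39), beside -0.05, 0.10 and -0.00065 over all coding promoters, and the median SE of a member was 0.45, 0.40 and 0.47. Shifts smaller than about 2 SE could not be told from replicate spread with 2 libraries a group. Larger shifts could also fail to pass after the adjustment over all regions, as did MKI67 in MV4-11 (shift 1.26, SE 0.40, adjusted p = 0.739 by limma).

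MKI67, CCNB1 and BUB1B were the member promoters with an unadjusted p under 0.05 in a line. MKI67, which encodes the proliferation antigen Ki-67 that coats mitotic chromosomes, had 11.5 and 13.2 in control and 18.1 and 19.5 in treated MV4-11, so both treated libraries lay above both controls. Its shift was 1.26 (SE 0.40, unadjusted p = 0.0102, adjusted p = 0.739 by limma). In MOLM13 MKI67 had 11.9 and 13.1 in control and 9.81 and 14.5 in treated MOLM13 and in OCI-AML3 9.97 and 13.9 in control and 11.9 and 15.4 in treated OCI-AML3, with shifts of -0.35 and 0.64 that had unadjusted p above 0.05. Over the 3 lines its shift was 0.58 (SE 0.25, unadjusted p = 0.0339, adjusted p = 0.762 by limma), the only member under 0.05 in that fit, where 4.03% of coding promoters were.

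CCNB1, the cyclin partner of CDK1 in mitosis, had 17.9 and 15.4 in control and 11.8 and 9.92 in treated OCI-AML3, with a shift of -1.23 (SE 0.52, unadjusted p = 0.0352, adjusted p = 0.845 by limma). BUB1B, a spindle checkpoint kinase, had 15.4 and 19.8 in control and 13.9 and 9.78 in treated OCI-AML3, with a shift of -1.21 (SE 0.51, unadjusted p = 0.0365, adjusted p = 0.853). Both genes had both treated libraries below both controls in OCI-AML3. In MV4-11 CCNB1 had 15.5 and 16.3 in control and 19.1 and 16.6 in treated MV4-11 and BUB1B had 15.5 and 14.5 in control and 17.2 and 17.4 in treated MV4-11, and in those libraries the treated values were the higher ones. None of the 3 promoters passed the adjusted threshold, and 1.84% and 2.61% of coding promoters had such a p in MV4-11 and OCI-AML3.

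**Figure D4:**
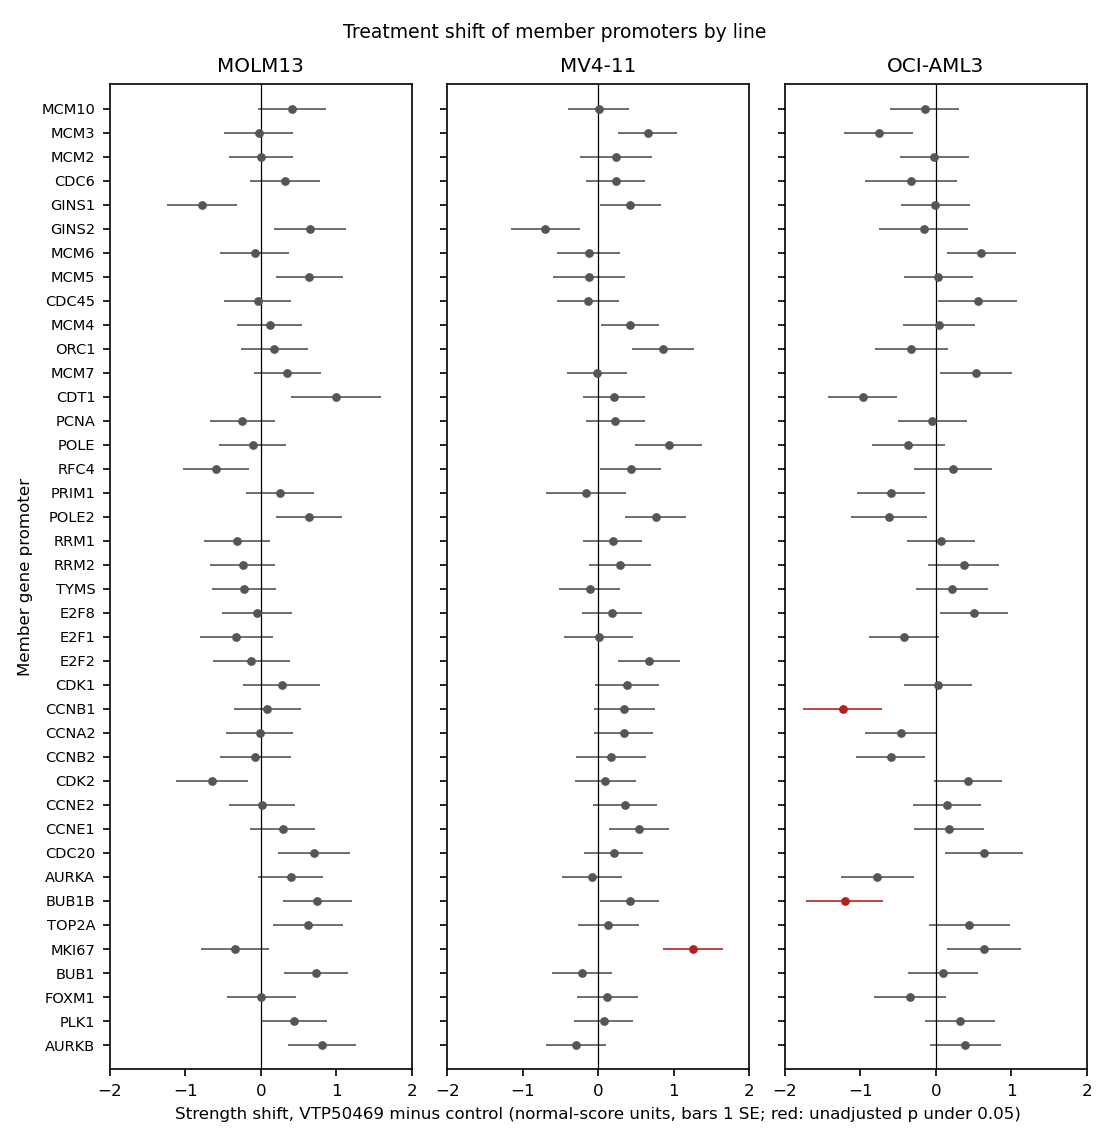
Points give the shift of promoter strength, VTP50469 minus control in normal-score units, with bars of 1 SE, for each member in MOLM13, MV4-11 and OCI-AML3. Points in red have an unadjusted p under 0.05 (MKI67 in MV4-11, CCNB1 and BUB1B in OCI-AML3), and no point passed the adjusted threshold.

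The rank scores and the folds were also counted by whether the 2 treated libraries lay apart from the 2 controls, and both are given because a rank can differ from a fold in order. By rank score, 11 of 40 member promoters lay above in MOLM13 and 8 below, beside 13.5% and 18.9% of coding promoters. In MV4-11 16 of 40 lay above and 1, AURKB, below, beside 24.7% and 10.9%. In OCI-AML3 7 of 39 lay above and 8 below, beside 17.4% and 16.6%. By fold the counts were 19 above and 1 below of 40 in MOLM13 (coding promoters 26.7% and 8.69%), 17 and 0 of 40 in MV4-11 (23.8% and 12.3%) and 3 and 12 of 39 in OCI-AML3 (8.60% and 26.5%). For members, above was thus the more frequent on both scales in MOLM13 and MV4-11. In OCI-AML3 below was the more frequent, though only by 8 to 7 by rank score. The size of the imbalance in MOLM13 and OCI-AML3 depended on the scale. For coding promoters the more frequent direction itself changed with the scale in these 2 lines, and in MV4-11 it was above on both.

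Some members lay apart in opposite directions in different lines. By rank score, 11 (28.2%) of 39 members called in every library had both treated libraries above both controls in 1 line and below both in another, beside 13.9% of coding promoters: MCM3, GINS1, PCNA, RFC4, RRM1, CCNB1, CDK2, AURKA, AURKB, BUB1B and MKI67. By fold there were 9, beside 15.9%, and 6 genes were in both counts: MCM3, GINS1, PCNA, CCNB1, AURKA and BUB1B. These were chosen by their values, and the difference itself was tested with limma as treatment by line. In that test 0 of 23338 regions passed (0%) for any pair of lines, with 1117, 1584 and 1366 regions at an unadjusted p under 0.05. The smallest member p was that of BUB1B between MOLM13 and OCI-AML3, with a difference of 2.096 (SE 0.62, unadjusted p = 0.00418, adjusted p = 0.578 by limma), and its folds in MOLM13 were 11.98 and 10.3 in control and 14.5 and 16.6 in treated MOLM13. For MKI67 between MOLM13 and MV4-11 the difference was -1.83 (SE 0.61, unadjusted p = 0.00854, adjusted p = 0.989 by limma).

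Lines were compared as the mean of control and treated libraries of a line against that of another, by limma on the 23338 regions called in all 12 libraries. MOLM13 and MV4-11 differed at 1032 regions, MOLM13 and OCI-AML3 at 2051 and MV4-11 and OCI-AML3 at 3173. Coding promoters as a whole had a median shift of 0.21 between MOLM13 and MV4-11, -0.01 between MOLM13 and OCI-AML3 and -0.22 between MV4-11 and OCI-AML3. Of 39 member promoters, 1 was higher and 0 lower in MOLM13 than in MV4-11, beside 0.996% and 0.520% of 9235 coding promoters. Against OCI-AML3, MOLM13 was higher at 2 and lower at 1, beside 1.86% and 2.32%, and MV4-11 was higher at 2 and lower at 1, beside 2.21% and 6.52%.

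CDK2, the kinase that cyclin E and cyclin A turn on in S phase, was the clearest of these, at chr12:55966227-55967286, a region that also covers the PMEL start site. Its folds were 14.02 and 11.1 in control and 9.94 and 11.9 in treated MOLM13, 13.3 and 12.8 in control and 12.4 and 14.7 in treated MV4-11, and 5.75 and 6.33 in control and 7.07 and 6.21 in treated OCI-AML3, and all 4 OCI-AML3 libraries lay below the other 8. Its summit reads were 29 and 28 in control and 24 and 25 in treated MOLM13, 31 and 34 in control and 31 and 36 in treated MV4-11, and 10 and 10 in control and 13 and 12 in treated OCI-AML3. The median over all peaks was 9 or 10 summit reads in the libraries of both MOLM13 and OCI-AML3, but a median over called peaks does not measure depth. Peaks in use numbered 79373 to 103034 in the MOLM13 libraries and 68670 to 94529 in those of OCI-AML3. The part of depth in the CDK2 difference was not tested. The shift was 1.47 between MOLM13 and OCI-AML3 (SE 0.30, adjusted p = 0.00738 by limma) and 1.34 between MV4-11 and OCI-AML3 (SE 0.30, adjusted p = 0.00951 by limma). Both calls were kept when any library was left out, with a highest adjusted p of 0.0491. With the contrast limited to the control libraries, the call against MV4-11 was lost (adjusted p = 0.0607 by limma).

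RRM2 and RRM1 encode the small and the large subunit of ribonucleotide reductase, which makes deoxynucleotides for DNA synthesis, and they were ordered differently among the lines. RRM2 (chr2:10121890-10123209) had 7.68 and 8.35 in control and 7.04 and 8.79 in treated MOLM13, 9.14 and 7.64 in control and 10.1 and 8.58 in treated MV4-11, and 10.1 and 10.5 in control and 12.02 and 9.86 in treated OCI-AML3. MV4-11 was lower than OCI-AML3 with a shift of -1.17 (SE 0.28, adjusted p = 0.0143 by limma), and MOLM13 was lower than OCI-AML3 with a shift of -0.96 (SE 0.28, adjusted p = 0.0448 by limma). The call against MOLM13 was lost on leaving out any of the 11 libraries other than OCI-AML3 VTP50469 2, with adjusted p of 0.0534 to 0.130, and with −log10 q in place of the fold (0.105). The call against MV4-11 was lost without MV4-11 control 2 or VTP50469 2 (0.0678 and 0.0668) and with −log10 q (0.0576).

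RRM1 (chr11:4094289-4095284) had 12.8 and 14.2 in control and 13.2 and 13.4 in treated MOLM13, 10.2 and 10.5 in control and 11.3 and 11.0 in treated MV4-11, and 10.6 and 12.2 in control and 10.7 and 11.1 in treated OCI-AML3. MOLM13 was higher than MV4-11 by 1.18 (SE 0.25, adjusted p = 0.0168 by limma), with all 4 MOLM13 folds above all 4 of MV4-11. That call was lost without MOLM13 VTP50469 1 or any MV4-11 library, with adjusted p of 0.0540 to 0.0681. Between MV4-11 and OCI-AML3 the shift was -0.78 (SE 0.25, adjusted p = 0.0538), just outside the threshold.

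GINS1, a subunit of the GINS complex of the active helicase, had 16.1 and 14.6 in control and 13.4 and 13.3 in treated MOLM13, 13.6 and 13.5 in control and 14.6 and 17.0 in treated MV4-11, and 8.94 and 11.4 in control and 9.79 and 8.91 in treated OCI-AML3 at chr20:25407210-25408072. MOLM13 was higher than OCI-AML3 by 1.04 (SE 0.29, adjusted p = 0.0343 by limma), a call lost without MOLM13 control 1, VTP50469 1 or VTP50469 2 or any OCI-AML3 library, with adjusted p of 0.0521 to 0.120. AURKB had 7.06 and 7.70 in control and 8.99 and 13.9 in treated MOLM13, 14.7 and 15.8 in control and 12.7 and 15.1 in treated MV4-11, and 7.72 and 6.94 in control and 7.59 and 8.43 in treated OCI-AML3 at chr17:8210013-8210907. MV4-11 was higher than OCI-AML3 by 1.16 (SE 0.30, adjusted p = 0.0198 by limma), and the call was lost without MV4-11 control 2, MV4-11 VTP50469 2, OCI-AML3 control 2 or OCI-AML3 VTP50469 1, with adjusted p of 0.0594 to 0.0880. Between MOLM13 and MV4-11 its shift was -0.90 (SE 0.30, adjusted p = 0.0986), and the MOLM13 values spread from 7.06 to 13.9.

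Among the 7 member regions outside any coding promoter and in all libraries, 2 passed between MV4-11 and OCI-AML3, both higher in MV4-11, beside 10.9% higher and 6.15% lower of 13523 regions outside coding promoters. They were the region within MCM5 (shift 1.16, SE 0.36, adjusted p = 0.0435 by limma) and the one downstream of AURKB (1.30, SE 0.38, adjusted p = 0.0337), so promoter and downstream region of AURKB both differed between these lines. The 6 regions on promoters of neighboring genes did not pass in this comparison. None of the 13 passed between MOLM13 and MV4-11, beside 1.60% and 4.94%, or between MOLM13 and OCI-AML3, beside 5.72% and 6.37%. None passed for treatment over the 3 lines, where the smallest adjusted p of the 13 was 0.791.

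**Figure D5:**
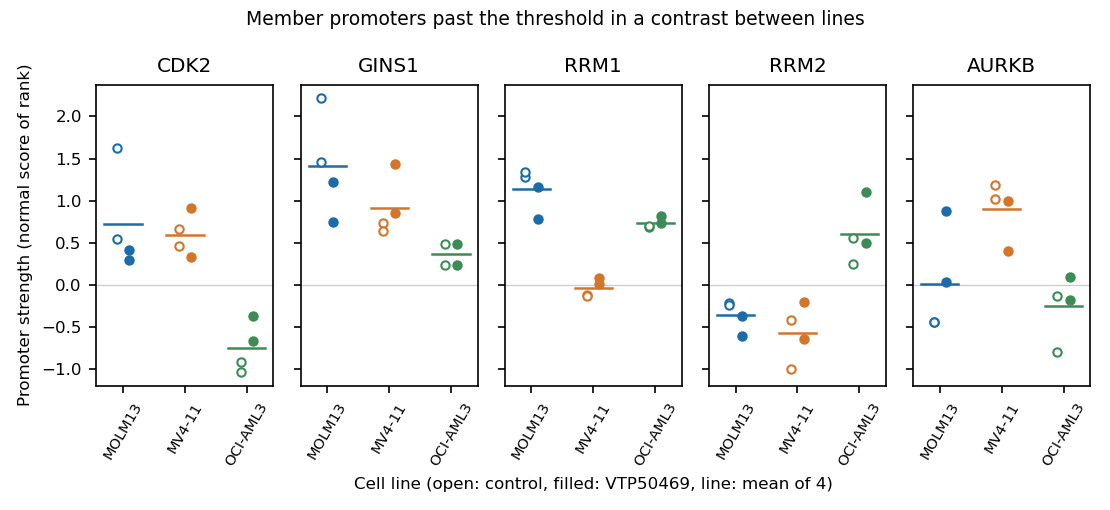
Points give the promoter strength (normal score of the within-library rank over 23338 regions) in each library, open for control and filled for VTP50469, with a line at the mean of the 4 libraries, for CDK2, GINS1, RRM1, RRM2 and AURKB. In CDK2 the OCI-AML3 points lie below 0 and the other 8 above it, and in RRM2 the OCI-AML3 points lie above 0 and the other 8 below it.

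Other genes of the same pathways were counted in the same fits. Of 39 further replication genes 38 had a promoter peak in all 12 libraries, and of 39 further mitosis genes all 39 had, beside 53.6% of protein-coding promoters. No promoter of either list passed for treatment in any line or over the lines. RFC3, a subunit of the clamp loader, was higher in MOLM13 than in OCI-AML3 (shift 1.38, SE 0.35, adjusted p = 0.0228 by limma). Between MV4-11 and OCI-AML3 1 of 39 mitosis genes, BUB3, was lower in MV4-11 (shift -1.46, SE 0.27, adjusted p = 0.00375 by limma), beside 6.52% of coding promoters. None of either list passed between MOLM13 and MV4-11.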

How the data were processed

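The authors deposited 1 peak list per library, called by MACS2 in that library alone. The submitters' processing notes list hg38 as the build and, as tools, MACS2 2.1.0, Bowtie 1.1.2, Trimmomatic 0.33, bcl2fastq 2.17 and deepTools. TopHat2 is the aligner in the supplementary methods. Duplicate handling and the shift of read ends are not given in the sources used here. Fold enrichment, a deposited ratio, divides summit reads plus 1 by the background nearby plus 1, and it was not normalized between libraries. The deposited −log10 p and −log10 q belong to the summit, with a q of 0.05 as the limit. The deposited score equals 10 times that −log10 q, cut to a whole number, and the deposited summit offset is in bp. Sequencing totals were not analysed here. Summit reads were recovered from fold and p within 0.001 for 99.99% or more of the peaks in every library. They cover counting error only and are not independent molecules.

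The lists held 1200433 peaks, and 956 of them on contigs other than chromosomes 1 to 22 and X were left out. Peaks that overlapped by 1 bp were merged over the 4 libraries of a line and over all 12. Gene bodies and start sites came from RefSeq (GRCh38.p14). Of the 40 genes, 33 had their start sites in its promoter table, and for MCM4, MCM5, E2F8, CCNE2, CDK2, AURKA and FOXM1 the start was the gene end given by the GENCODE strand. Strength was the normal score of the rank of the strongest fold of a region within its library, tested by limma 3.58.1 in R 4.3.3 (moderated, two-sided, Benjamini-Hochberg over all regions), within a line on its 4 libraries and between lines on all 12 with 6 group means. The method was tested on simulated data. Alternatives were log2 fold, −log10 q ranks, a −log10 q limit of 5, a replicate block and all 12 libraries for the tests within a line. Lines were also contrasted by their control libraries alone, within the fit of all 12. Further alternatives were peaks covering a region by its greater part, no flank, promoters of 500 bp, and each library left out.

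Values are given for E2F2 (not called in every library), the 3 highest and 3 lowest median promoter folds, members past the adjusted threshold between lines, members with a lost or gained region, and member promoters with an unadjusted p under 0.05 for treatment. BUB1B and MKI67 between lines, and the regions outside promoters, were described after their values were seen. The members, lists and tests were chosen with earlier results of these data known. A result for a further replication gene is not reported here.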

Additional observations from a re-analysis of the deposited data

How the results depend on the processing

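No region passed for treatment in any line or over the 3 lines with log2 folds, −log10 q ranks, the −log10 q limit of 5, the replicate block or all 12 libraries in the fit. Leaving out each library gave 0 to 4 passing regions in MV4-11 (4 without MV4-11 VTP50469 1) and 0 to 2 for treatment by line (1 without MV4-11 control 1, 2 without OCI-AML3 VTP50469 1 and 2 without OCI-AML3 VTP50469 2), and 0 in the other treatment fits. In a group left with 1 library, that library was assumed to vary like the others.

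The counts of member promoters between lines rested on few genes. Leaving out each library gave 0 to 1 between MOLM13 and MV4-11, 1 to 2 between MOLM13 and OCI-AML3 and 1 to 3 between MV4-11 and OCI-AML3. With the contrast limited to the control libraries, 0, 1 and 0 passed. That contrast had fewer samples, while its spread and its regions still came from all 12 libraries. With −log10 q ranks 5 passed between MOLM13 and OCI-AML3, where the cause was not tested. Under these settings RRM1, CDK2, GINS1, RRM2 and AURKB kept the direction of their passing line contrasts, and MKI67, CCNB1 and BUB1B that of their treatment shifts under the settings run for treatment. Other promoters were not rerun.

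Member regions lost numbered 6, with 3 at the −log10 q limit of 5 and 3 without the flank, and 6 to 28 when each library in turn was left out. Member regions gained numbered 3, with 3 to 26 in that case, since a call then needs fewer libraries. Member promoters called in all 12 libraries numbered 39, beside 53.6% of coding promoters. At the −log10 q limit of 5 there were 38, beside 47.4%, where CDT1 had 10 libraries and E2F2 8. With promoters of 500 bp there were 38, beside 51.7%, where E2F2 had 10 libraries and CCNE2 11.

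With folds in place of ranks, an alternative chosen after seeing the data, member promoters with treated above controls went from 11 to 19 in MOLM13 and from 7 to 3 in OCI-AML3, and those below from 8 to 1 in MOLM13 and from 1 to 0 in MV4-11. The cause was not tested.

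Same-numbered replicates were not shown to be paired: the correlation of the replicate differences of control and treated libraries was 0.04, 0.02 and 0.01 in MOLM13, MV4-11 and OCI-AML3. With the replicate block 1, 3 and 3 member promoters passed between the lines in the order above, the same numbers as without it.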

Other observations

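The members did not stand at the same rank in every library. Their median percentile among the called coding promoters was 66.5 and 62.1 in control and 72.2 and 70.0 in treated MOLM13, 71.9 and 72.9 in control and 75.0 and 74.3 in treated MV4-11, and 59.8 and 71.6 in control and 68.2 and 61.5 in treated OCI-AML3. The treated libraries lay above the controls in MOLM13 and MV4-11 and overlapped with them in OCI-AML3, where the lowest values came from the libraries with the fewest peaks (70454 and 68670). For the 9 mitosis genes the values were 66.4 and 53.8 in control and 78.3 and 81.2 in treated MOLM13, 85.6 and 83.4 in control and 90.3 and 86.2 in treated MV4-11, and 59.5 and 78.6 in control and 79.0 and 61.5 in treated OCI-AML3. Of the nucleotide supply genes, RRM2 took percentiles of 52.9 to 79.9 in OCI-AML3, above those in MOLM13 (24.4 to 34.3) and MV4-11 (23.7 to 39.3). RRM1 took 65.1 to 69.9 in OCI-AML3, below those in MOLM13 (72.1 to 87.6), and TYMS overlapped among the lines. These values are descriptions with no test.

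Of the 40 genes, 11 (27.5%) had the start site of another gene on the opposite strand within 1000 bp upstream, beside 20.9% of 19630 coding genes and 32.3% of those called in 12 libraries. The partners were TPRA1 for MCM2, PRKDC for MCM4, AP4M1 for MCM7, UFD1 for CDC45, PRPF38A for ORC1, CDS2 for PCNA, PXMP2 for POLE, PMEL for CDK2, CSTF1 for AURKA, CDC20-DT for CDC20 and an unnamed RNA gene for BUB1. A promoter peak of these genes cannot be given to 1 of the 2 start sites. The 300 bases around the start site had a median GC content of 64.7% in the 33 members with sequence, beside 62.7% in all coding promoters and 65.7% in those called in 12 libraries. The ratio of observed to expected CpG was 0.941, beside 0.762 and 0.858.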
